A study of Mus musculus with 34 samples.

Results

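The change between day 1 and day 5 of culture was examined in NaJa-D cells kept in dimethyl sulfoxide (DMSO), the solvent of the drug used elsewhere in the study. All 6 libraries of this kind, 3 from day 1 and 3 from day 5, were taken out of the 34 RNA-seq libraries of the series by their titles, and all 14107 genes of the deposited count table were tested. NaJa-D is a mouse colorectal cancer line, the one of the 3 lines of the study with epithelial-like morphology. It was grown out of the peritoneal lavage of a single C57BL/6N recipient of Col235 colon organoids from a male donor, so that the line stands for the tumour of 1 animal. Every library of both days carries the labelled genotype VillinCreERT2::BrafV600E/+::Trp53R172H::APCdel, in which a tamoxifen-inducible Cre driven by the Villin promoter acted in intestinal epithelium. The cells of both groups were plated together in DMEM with 10% fetal bovine serum and received DMSO with fresh medium on day 0. The day 5 cultures received it again on day 2 and day 4, so that both groups were harvested 1 day after their last fresh medium, at a confluence that the study describes as checked. Time in culture, the number of medium changes and the total exposure to DMSO therefore cannot be told apart. Nothing in the labels says that the 3 libraries of a day came from separate cultures, so the spread between them may be technical. The p-values given here rest on the spread between libraries within groups, estimated over all 12 groups of line, treatment and day and not from these 6 libraries alone.

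A BRAF V600E cell signals through MEK and ERK without needing a growth factor. ERK output is read in immediate early genes such as Egr1 and Fos, in the feedback phosphatases of the Dusp family and in the Sprouty proteins, which damp the pathway again. Cells on plastic also respond to attachment, through integrins, laminins and the YAP and TEAD factors, to the supply of sterols, sensed through the SREBP factors, and to oxygen, sensed through the hypoxia-inducible factors. Lists of genes for these and other processes are described below by their counts and medians, beside those of all genes.

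One label needs care. By its title a library is replicate 3 of NaJa-D with DMSO at day 1, but its cell line field reads NaJa-G. Its log2 CPM (counts scaled to a common library total) correlated across genes at 0.995 with each of the other day 1 libraries of NaJa-D and at 0.917 to 0.920 with those of NaJa-G. Vim, the intermediate filament of mesenchymal cells, stood at 125 CPM in it, at 127 and 118 CPM in the other day 1 libraries, and at a mean of 2503 CPM in NaJa-G at day 1. The library was kept under its title, and counts are also given without it where that matters. Library totals ran from 46007050 to 61028464 counts, and the TMM scaling factors, which correct for the composition of a library, were 0.876 to 0.909 at day 1 and 1.00 to 1.02 at day 5. Defining genes of immune cells (Ptprc, Lyz2, Itgam), of endothelium (Pecam1, Cdh5) and of fibroblasts (Lum, Thy1) are not in the table, and the summed level of the 9 fibroblast markers measured was 3.83 to 4.43 CPM at day 1 and 3.23 to 4.19 CPM at day 5. Of 12 immune markers, 3 are in the table (summed to 41.04 to 47.6 CPM at day 1 and 37.3 to 41.7 CPM at day 5), and of 8 endothelial markers 3 (at most 2.00 CPM in sum). Of 8 mesothelial markers, 5 are in the table, without Wt1, Upk1b and Calb2. They were not low, summing to 1489 to 2013 CPM at day 1 and 1390 to 1634 CPM at day 5. Of this, Msln, also on the list of fetal or regenerating epithelium below, had means of 1414 CPM at day 1 and 1306 CPM at day 5. Single markers in these lists passed the test, Cd68 (-0.65) and Col6a3 (-1.41) falling and, of the 5 mesothelial markers, Upk3b rising by 2.05 and Cpe falling by 0.72 on the log2 scale. Their part in the results was not tested. Epithelial genes were abundant, with Epcam at 1111 ± 109.6 CPM at day 1 and 1025 ± 83.9 CPM at day 5 and Cdh1 at 1606 ± 108 CPM at day 1 and 1254 ± 103 CPM at day 5 (mean ± SD, n = 3).

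Between day 1 and day 5, 4090 genes passed an adjusted p of 0.01 (limma-voom, Benjamini-Hochberg), which is 29% of those tested. Of all genes, 13.7% rose and 15.3% fell, and genes that passed this test are called changed below. Most changes were small. The middle 50% of all log2 fold changes lay between -0.20 and 0.24, and only 412 changed genes (2.92%) reached an absolute log2 fold change of 1. Among these larger changes the rises were more numerous, with 290 genes up (2.06% of all genes) and 122 down (0.865%). Without day 1 replicate 3, 3046 genes changed, and 3028 of them were among the 4090. The direction of small changes depends on the scaling. Scaled by library size alone, the median of all genes moved from 0.0075 to 0.18, and 4137 of 5063 changed genes (81.7%) were higher at day 5 against 47.4% with TMM. All fold changes below are therefore relative to the bulk of the genes. Rises and falls counted in a list under library size scaling stand beside 4137 and 926 of all 14107 genes. Where the days are said not to overlap for a gene, this stands beside 51% of all genes without overlap. 

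**Figure D1:**
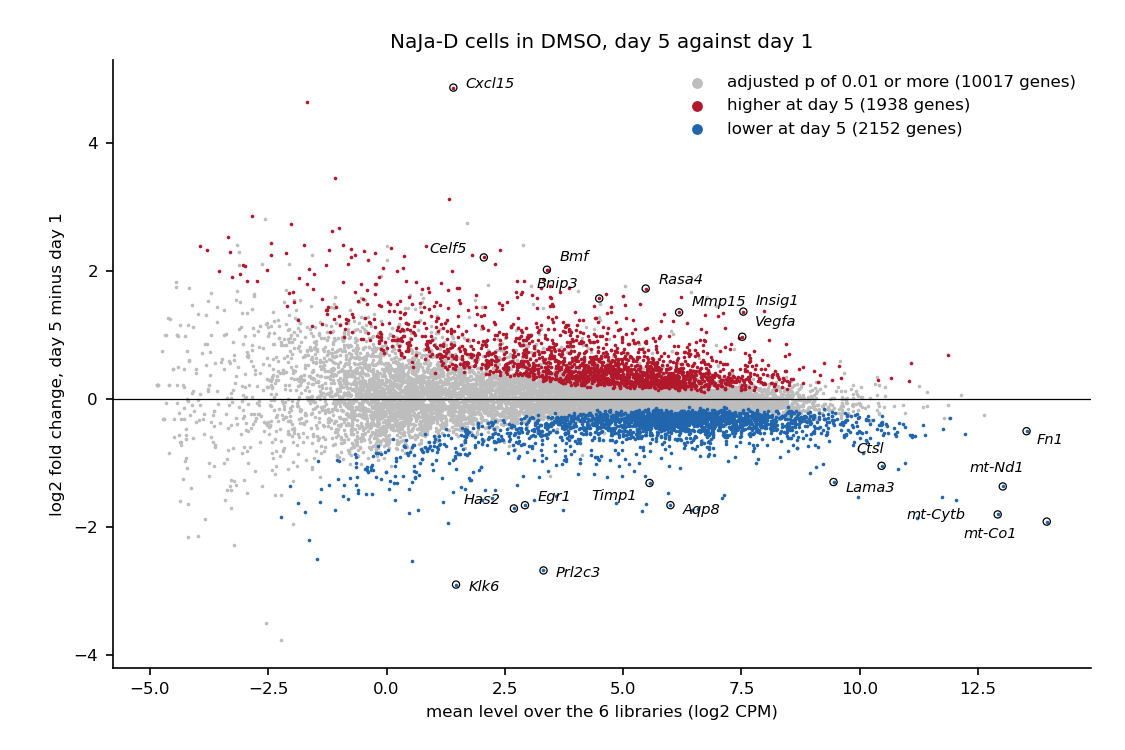
Each point is a gene, placed by its mean level over the 6 NaJa-D DMSO libraries (log2 CPM, horizontal) and its log2 fold change from day 1 to day 5 (vertical), with genes higher (1938) and lower (2152) at day 5 coloured and named genes circled. At the highest levels, mt-Co1, mt-Nd1, mt-Cytb and Fn1 lie below 0, while the largest rises belong to weakly expressed genes such as Cxcl15.

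Transcripts of the mitochondrial genome fell as a whole. This small circular genome encodes 13 proteins, all subunits of the respiratory chain or of ATP synthase, and its RNA is made and turned over inside the organelle. All 13 transcripts fell (12 under library size scaling, and 12 without day 1 replicate 3), with a median log2 fold change of -1.52 and a range from -1.91 to -0.84. Reads of mitochondrial genes made up 6.59%, 6.66% and 8.01% of the counts in the day 1 libraries and 2.30%, 2.42% and 2.68% in those of day 5, so the groups did not overlap. mt-Co1, the catalytic subunit of cytochrome c oxidase, stood at 27834, 29367 and 35464 CPM at day 1 and 7862, 7831 and 8829.9 CPM at day 5. Its log2 fold change was -1.91 ± 0.13 (SE), with an adjusted p of 6.75e-12 by limma-voom. mt-Cytb, the cytochrome b of complex III, changed by -1.80 ± 0.13 and mt-Nd1, a core subunit of complex I, by -1.36 ± 0.11. Per kilobase of exon, 7 of the 10 most abundant genes at day 1 were mitochondrial and 4 at day 5, mt-Co1 going from 19992 to 5291 CPM per kilobase and the translation factor Eef1a1 from 2754 to 2314. Nuclear pseudogenes that copy stretches of this genome fell with it, among them Gm28439, Gm29216 and Gm10222 on chromosome 1 and Gm13340 and Gm13341 on chromosome 2, with log2 fold changes from -1.75 to -1.62. Reads cannot be divided with certainty between such copies and the organelle, which also leaves the low levels of mt-Co2, mt-Co3 and mt-Atp6 uncertain. Removing the genes of the mitochondrial genome before scaling left 4123 changed genes, 3948 of them among the 4090.

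**Figure D2:**
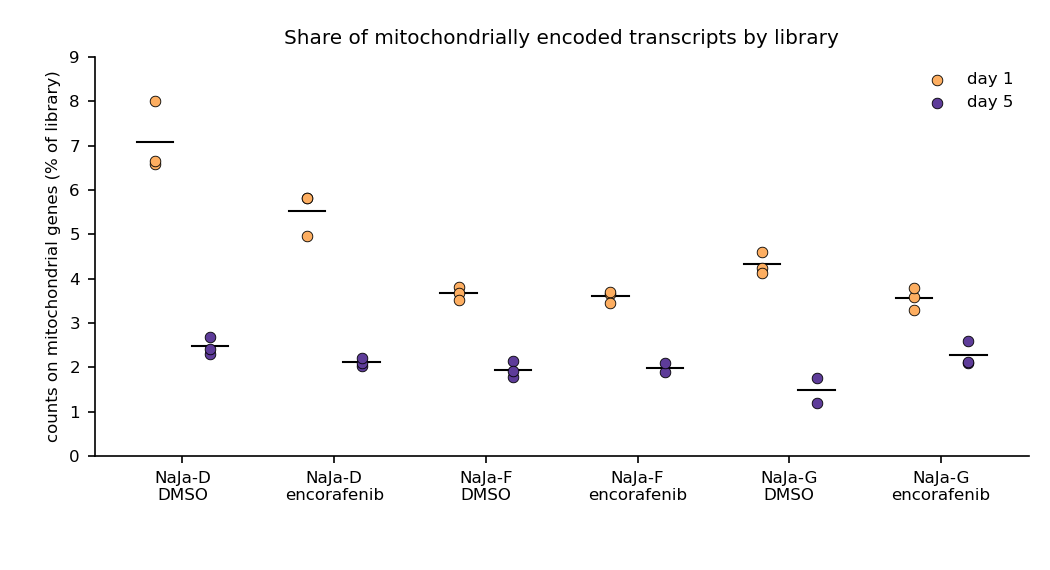
Points are libraries, placed by the percentage of their counts on genes of the mitochondrial genome, with day 1 and day 5 side by side for each line and treatment and bars at the group means. In NaJa-D with DMSO the share was 7.09% on average at day 1 and 2.47% at day 5, and it was lower at day 5 than at day 1 in every library of each line and treatment.

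The nuclear-encoded partners of these subunits moved much less. Of 75 nuclear genes of the respiratory chain and ATP synthase, 25 fell (33.3% against 15.3% of all genes) and 1 rose, with a median of -0.19. Atp5b, the catalytic beta subunit of ATP synthase, changed by -0.40 ± 0.070 and Cox4i1, a subunit of cytochrome c oxidase, by -0.31 ± 0.088. These small falls depended on the scaling, as 7 genes fell and 8 rose when libraries were scaled by size alone, and on day 1 replicate 3, without which 16 fell.

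Among genes read out downstream of growth factor receptors and ERK, falls outnumbered rises. Of 15 immediate early and AP-1 genes, 7 fell and 2 rose (5 and 3 under library size scaling). Egr1, a zinc finger factor induced within minutes of ERK activation, was measured at 15.1, 12.7 and 12.6 CPM at day 1 and 4.55, 4.39 and 3.89 CPM at day 5. Its log2 fold change was -1.66 ± 0.15 (adjusted p = 8.14e-10, limma-voom). Fosb changed by -1.13 ± 0.10 and Fos, at a mean of 2.77 to 1.55 CPM, by -0.83 ± 0.17. Fosl1, the AP-1 member that ERK stabilises, changed by -0.58 ± 0.093, and Myc by -0.45 ± 0.077. In contrast, Ier3 rose by 0.40 and Nr4a1 by 0.32, while Jun (0.14), Junb (0.072) and Atf3 (0.067) did not pass the test. Without day 1 replicate 3 the falls numbered 5.

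Among 16 feedback regulators and targets of ERK, 6 fell and 2 rose, or 6 and 4 under library size scaling, where the list median turned from -0.14 to 0.038. Dusp5, a nuclear phosphatase of ERK, had 49.1, 44.9 and 48.2 CPM at day 1 and 19.7, 19.04 and 23.1 CPM at day 5. The day 5 values were all below the day 1 values, for a log2 fold change of -1.20 ± 0.096 (adjusted p = 1.31e-10, limma-voom). The cytoplasmic ERK phosphatase Dusp6 changed by -0.45 ± 0.073, and the Sprouty inhibitors Spry2 and Spry4 by -0.61 ± 0.078 and -0.74 ± 0.13. Dusp4, another nuclear phosphatase, went the other way at 0.54 ± 0.085, as did the ETS factor Etv4 at 0.26 ± 0.064. Cyclin D1, a further target, did not pass the test (-0.15 ± 0.078). Of 12 receptors and ligands of the EGFR family, 7 fell and none rose, with a median of -0.37 (6 fell and 1 rose under library size scaling). They include the receptor Egfr itself (-0.39 ± 0.060), the ligands Hbegf (-0.76 ± 0.074), Ereg (-0.54 ± 0.066) and Areg (-0.42 ± 0.097), and the receptor's inhibitors Errfi1 and Lrig1 (-0.38 ± 0.055 and -0.37 ± 0.056). Hbegf, which encodes heparin-binding EGF, was at 107, 109 and 125 CPM at day 1 and 67.9, 71.2 and 62.7 CPM at day 5, and the days did not overlap.

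Many genes for attachment to the substrate fell. Of 19 matrix and integrin genes, 10 fell (52.6%) and none rose, or 8 and 2 under library size scaling. Lama3 and Lamb3 encode laminin chains of the basement membrane, which epithelial cells lay down and hold through integrin alpha 6 beta 4. Lama3 stood at 1042, 1047 and 1192 CPM at day 1 and 472, 473 and 396 CPM at day 5. Its log2 fold change was -1.29 ± 0.076 and that of Lamb3 -0.60 ± 0.081, with adjusted p-values of 5.15e-13 and 1.27e-06 by limma-voom. The receptor subunits Itga6 and Itgb4 changed by -0.61 ± 0.078 and -0.59 ± 0.084, and the integrin subunits Itga3, Itgb1 and Itgav by -0.56, -0.55 and -0.51. Fibronectin (Fn1), among the most abundant transcripts of these cells, went from a mean of 14014 to 9958 CPM, a log2 fold change of -0.50 ± 0.077. The type IV collagens Col4a1 (0.033) and Col4a2 (0.020) did not pass the test.

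Of 17 targets of the YAP and TEAD factors, 9 fell and none rose, with a median of -0.30. Size scaling alone left 5 lower and 1 higher. Tissue factor (F3) changed by -0.93 ± 0.076 and Ccn1, a matricellular protein, by -0.81 ± 0.062, its values being 454, 463 and 504 CPM at day 1 and 265, 286 and 261 CPM at day 5. The related Ccn2 did not pass the test (-0.16 ± 0.076). Has2, the enzyme that makes the matrix polymer hyaluronan, changed by -1.71 ± 0.15 (adjusted p = 5.23e-10, limma-voom), with 11.4, 10.4 and 13.001 CPM at day 1 and 3.01, 4.06 and 3.71 CPM at day 5. Of 13 matrix proteases and their inhibitors, 4 fell and 1 rose with TMM, and 4 fell and 3 rose under library size scaling, where the list median turned from -0.12 to 0.060. Timp1, an inhibitor of metalloproteases, was at 68.3, 73.7 and 80.2 CPM at day 1 and 26.1, 34.3 and 30.1 CPM at day 5, without overlap. Its log2 fold change was -1.31 ± 0.096, and those of the plasminogen activators Plau and Plat were -0.62 ± 0.073 and -0.49 ± 0.067. Mmp15, a membrane-anchored matrix metalloprotease, rose by 1.36 ± 0.11.

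**Figure D3:**
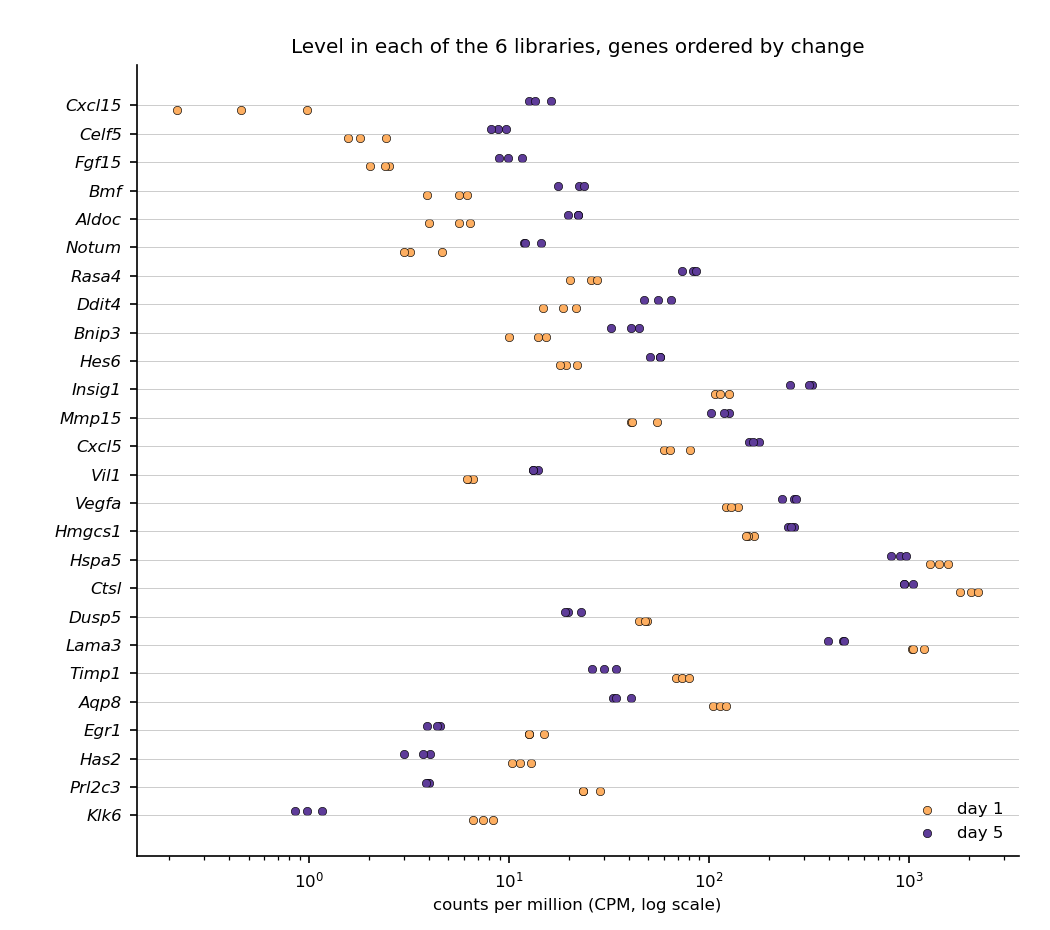
Each point is 1 library, placed by the CPM of the gene on a log scale, with day 1 and day 5 drawn apart and genes ordered from the largest rise (Cxcl15, top) to the largest fall (Klk6, bottom) among those drawn. The values of the 2 days do not overlap for any of the genes drawn. For many of them this follows from the rule by which they were taken, and 51% of all genes had no overlap.

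Proliferation genes were modestly lower at day 5. Of 25 S phase genes, 16 fell (64%) and none rose, with a median of -0.29, and of 22 G2/M genes, 12 fell and none rose, with a median of -0.21. Cdc6, which loads the replicative helicase onto origins, changed by -0.69 ± 0.051, cyclin E1 (Ccne1) by -0.56 ± 0.065 and the helicase subunit Mcm3 by -0.50 ± 0.074. Mki67, which encodes the proliferation antigen Ki-67, was at 1129, 1249 and 1414 CPM at day 1 and 1017, 838 and 797 CPM at day 5. Its groups did not overlap and its log2 fold change was -0.52 ± 0.10. The mitotic kinase Plk1 changed by -0.59 ± 0.086, while Cdk1 (-0.16 ± 0.054), Top2a (-0.075 ± 0.052) and Pcna (-0.077 ± 0.054) did not pass the test. Scaled by library size alone, 6 S phase and 6 G2/M genes fell, still with none rising. In bulk RNA, fewer cycling cells and less of each transcript per cell cannot be told apart.

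Some inhibitors of cyclin-dependent kinases rose. Cdkn2b, which encodes p15, stood at 21.7, 22.8 and 19.2 CPM at day 1 and 39.8, 38.03 and 36.4 CPM at day 5, higher in every day 5 library, for a log2 fold change of 0.84 ± 0.12. Cdkn1a (p21) and Cdkn1b (p27) changed by 0.65 ± 0.071 and 0.60 ± 0.13, and the pocket protein gene Rbl2 by 0.49 ± 0.057. The inhibitors Cdkn2a (0.23), Cdkn1c (0.31), Cdkn2c (-0.18) and Cdkn2d (-0.17) did not pass the test. Cyclin D3 (Ccnd3), which inhibitors of this kind oppose, changed by -0.80 ± 0.12. In all, 4 of 15 genes on the list of D cyclins and inhibitors rose (26.7% against 13.7% of all genes) and 1 fell. With library size scaling 9 rose.

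Outside the mitochondrial genome, the list with the largest share of lowered genes held MYC targets and ribosome biogenesis, where 15 of 19 fell (78.9%) and none rose. Nucleolin (Ncl), nucleophosmin (Npm1) and the pyrimidine synthesis enzyme Cad changed by -0.42 ± 0.069, -0.28 ± 0.065 and -0.61 ± 0.072, and Myc itself was at 243, 256 and 253 CPM at day 1 and 207, 178 and 169 CPM at day 5. Under library size scaling 10 of them fell and 1 rose. Of 85 genes for cytosolic ribosomal proteins, 28 fell and none rose, with a median of -0.24. That count was 6 with library size scaling, where 3 rose. Several ribosomal protein genes have near-identical processed pseudogenes, which can take some of their reads.

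Sterol synthesis was the list with the largest share of genes that rose. Cells short of sterols release the SREBP factors from the endoplasmic reticulum, which then switch on the whole pathway from Hmgcs1 onward. Of 22 genes, 15 rose (68.2% against 13.7% of all genes) and none fell, with a median of 0.47. Insig1, the membrane protein that holds SREBP back and is itself a target, was at 107, 127 and 114 CPM at day 1 and 328, 318 and 256 CPM at day 5. Day 5 exceeded day 1 in every library, with a log2 fold change of 1.37 ± 0.065 (adjusted p = 2.26e-14, limma-voom). In the order of the pathway, the synthase Hmgcs1 changed by 0.70 ± 0.056, the mevalonate kinase Mvk by 0.53 ± 0.095, the decarboxylase Mvd by 0.83 ± 0.11, Fdps by 1.00 ± 0.11, the squalene synthase Fdft1 by 0.47 ± 0.058, the lanosterol synthase Lss by 0.78 ± 0.056 and Nsdhl by 0.86 ± 0.076. The squalene epoxidase Sqle (0.16 ± 0.075), the LDL receptor (-0.089 ± 0.081) and the reductase Dhcr7 (-0.081 ± 0.078) did not pass the test. The count was 15 without day 1 replicate 3 as well. In fatty acid synthesis 4 of 13 genes rose, or 9 under library size scaling, and none fell. These were the acetyl-CoA synthetase Acss2 (1.01 ± 0.093), the desaturases Scd2 (0.69 ± 0.079) and Scd1 (0.43 ± 0.081), and the malic enzyme Me1 (0.41 ± 0.070), while the fatty acid synthase Fasn stayed short of the test at -0.11 ± 0.096.

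The promoter of Hmgcs1 is shown because SREBP binds sterol regulatory elements there. The RefSeq window of 250 bases before its start, at chr13:119690101-119690350 on the plus strand of GRCm38.p6, reads as follows, with the match to TCACNCCAC in capitals.
Hmgcs1: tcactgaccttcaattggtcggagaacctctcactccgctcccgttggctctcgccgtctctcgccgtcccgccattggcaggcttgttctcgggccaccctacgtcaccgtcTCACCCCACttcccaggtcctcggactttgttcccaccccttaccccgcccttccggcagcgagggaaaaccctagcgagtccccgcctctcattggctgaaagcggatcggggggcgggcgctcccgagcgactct
On either strand, TCACNCCAC was found in 1 of the 14 cholesterol genes with a RefSeq promoter window (250 bases before to 50 after the start) and in 149 of 10225 genes of the table (1.46%). The match is a description of letters and not of binding.

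Many genes induced by low oxygen rose. Of 16 genes of the hypoxia response, 9 rose (56.2%) and none fell, with a median of 0.45. Ddit4, an inhibitor of mTORC1, was at 18.7, 21.7 and 14.9 CPM at day 1 and 65.02, 55.9 and 47.7 CPM at day 5, and the mitophagy receptor Bnip3 at 15.4, 14.1 and 10.1 CPM at day 1 and 32.5, 40.7 and 45.03 CPM at day 5. In both, every day 5 library exceeded every day 1 library, and the log2 fold changes were 1.61 ± 0.14 and 1.57 ± 0.11 (adjusted p = 8.16e-10 and 1e-11, limma-voom). Vegfa, the vascular growth factor, changed by 0.98 ± 0.068, with 122, 140.4 and 129.8 CPM at day 1 and 268, 272 and 232 CPM at day 5. Pdk1, which restrains entry of pyruvate into mitochondria, changed by 0.73 ± 0.065, and Bnip3l, related to Bnip3, by 0.67 ± 0.081. Carbonic anhydrase Car9 (-0.29 ± 0.15), Ndrg1 (0.18 ± 0.066) and the prolyl hydroxylase P4ha1 (0.093 ± 0.069), also known targets, did not pass the test. Of 17 glycolytic genes 3 rose and 2 fell, shares near those of all genes, with a median of 0.055. Under library size scaling 9 rose and none fell, and without day 1 replicate 3 the counts were 3 and 0. With TMM, the glucose transporter Slc2a1 (0.14 ± 0.080), Ldha (0.055 ± 0.090) and Pgk1 (0.065 ± 0.080) were among the 12 that did not pass. Aldoc, the aldolase isoform of brain and not on that list, was among the largest rises of all, at 2.02 ± 0.14, with 5.65, 6.38 and 3.98 CPM at day 1 and 19.9, 22.1 and 22.2 CPM at day 5.

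The hypoxia-inducible factors bind ACGTG, which was searched on both strands of the RefSeq windows. It was present in 11 of 13 hypoxia genes with a window (84.6%) and in 2971 of 10225 genes (29.1%), and in 6 of the 8 hypoxia genes with a window that rose. Among all genes of the table that rose, 447 of 1511 with a window held it (29.6%). The list was made of known targets of these factors, so its share says nothing about the change over time. The match is again one of letters and not of binding. The 250 bases before the starts of Bnip3 (chr7:138909507-138909756, minus strand) and Ddit4 (chr10:59951771-59952020, minus strand) in GRCm38.p6 are shown as the members of this list with the largest rises, with the motif in capitals. In Bnip3 the capitals span overlapping matches on the 2 strands.
Bnip3: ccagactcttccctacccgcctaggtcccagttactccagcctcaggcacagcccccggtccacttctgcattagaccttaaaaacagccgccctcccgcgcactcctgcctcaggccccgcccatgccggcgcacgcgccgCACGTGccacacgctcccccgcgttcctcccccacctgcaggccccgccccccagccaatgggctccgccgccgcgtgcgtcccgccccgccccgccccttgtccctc
Ddit4: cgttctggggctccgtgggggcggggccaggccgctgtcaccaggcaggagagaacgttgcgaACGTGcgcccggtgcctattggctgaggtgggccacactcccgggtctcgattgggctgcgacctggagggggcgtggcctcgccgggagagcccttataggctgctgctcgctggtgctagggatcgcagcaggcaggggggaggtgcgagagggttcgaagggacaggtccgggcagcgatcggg

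Most chaperones of the endoplasmic reticulum fell. Of 15 genes, 9 fell (60%) and 2 rose, or 7 and 3 under library size scaling. Hspa5, the BiP chaperone, was at 1282, 1424 and 1579 CPM at day 1 and 904, 975 and 820.3 CPM at day 5. All day 5 values were below those of day 1, with a log2 fold change of -0.67 ± 0.080 (adjusted p = 1.82e-07, limma-voom). Hyou1, its exchange factor, changed by -0.72 ± 0.077, calreticulin (Calr) by -0.68 ± 0.088, the disulfide isomerases Pdia4, Pdia6 and Pdia3 by -0.65 ± 0.086, -0.55 ± 0.073 and -0.53 ± 0.074, and Hsp90b1 by -0.51 ± 0.076. The members that rose were Xbp1 (0.64 ± 0.070), a transcription factor of the unfolded protein response, and Herpud1 (0.65 ± 0.078), which takes part in degrading proteins of this compartment. Without day 1 replicate 3, 7 fell. Cytosolic and mitochondrial heat shock proteins showed falls in 7 of 14 genes and no rise. They include Hsph1 (-0.74 ± 0.063), Hspd1 (-0.54 ± 0.066), Hsp90aa1 (-0.53 ± 0.081) and Hspa8 (-0.43 ± 0.075), while the inducible Hspa1a (0.044 ± 0.20) and Hspa1b (0.046 ± 0.21), which share nearly identical sequence, did not pass the test. Under library size scaling 4 of the 14 fell.

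The endoplasmic reticulum stress element, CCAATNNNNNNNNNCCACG, marks promoters of this chaperone class. Either strand was searched, and the motif was found in 6 of 13 genes of the list with a RefSeq window (Calr, Creld2, Dnajc3, Hsp90b1, Hspa5 and Pdia6) and in 15 of 10225 genes of the table (0.147%). Of those 6, all but Dnajc3 (-0.23 ± 0.074, not passing the test) fell. Its CCACG end can share letters with the ACGTG searched above. Here too the match is a description of letters and not of binding. The 250 bases before the starts of Hspa5 (chr2:34771840-34772089, plus strand) and Hsp90b1 (chr10:86705445-86705694, minus strand) in GRCm38.p6 are shown as abundant members of the group, with the element in capitals, once in Hspa5 and on each strand in Hsp90b1.
Hspa5: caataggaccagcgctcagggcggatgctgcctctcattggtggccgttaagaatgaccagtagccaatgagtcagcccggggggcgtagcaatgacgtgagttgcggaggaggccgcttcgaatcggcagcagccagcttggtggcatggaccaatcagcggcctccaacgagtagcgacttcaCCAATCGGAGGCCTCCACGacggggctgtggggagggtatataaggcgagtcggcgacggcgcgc
Hsp90b1: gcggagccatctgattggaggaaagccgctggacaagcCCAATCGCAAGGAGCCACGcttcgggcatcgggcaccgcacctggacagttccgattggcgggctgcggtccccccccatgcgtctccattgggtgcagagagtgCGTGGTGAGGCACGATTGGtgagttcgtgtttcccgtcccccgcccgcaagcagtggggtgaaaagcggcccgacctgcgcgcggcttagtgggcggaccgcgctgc

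Of 22 genes of the amino acid response through ATF4, 6 rose and 3 fell with TMM, and 15 rose and 2 fell under library size scaling. Nupr1, a small stress protein, changed by 1.58 ± 0.14 and the pseudokinase Trib3 by 1.26 ± 0.13, with values for Trib3 of 4.36, 4.29 and 4.58 CPM at day 1 and 9.98, 11.4 and 10.6 CPM at day 5. Chac1, which breaks down glutathione, changed by 0.91 ± 0.11 and Atf4 itself by 0.52 ± 0.055. The members that fell were the serine synthesis enzyme Phgdh (-0.73 ± 0.10) and the amino acid carriers Slc7a1 (-0.50 ± 0.085) and Slc7a5 (-0.35 ± 0.092). Asns (0.17 ± 0.068), Psat1 (-0.14 ± 0.075) and Ddit3 (0.23 ± 0.11), textbook targets of ATF4, did not pass the test.

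Genes of the intestinal epithelium included rises and falls. Of 12 measured genes of absorptive colonocytes, 4 rose and 3 fell, and 10 further listed genes, among them Slc26a3, Car1 and Alpi, are not in the table. Vil1, which encodes the microvillus protein villin and whose promoter drove the Cre, was at 6.26, 6.64 and 6.19 CPM at day 1 and 14.04, 13.2 and 13.2 CPM at day 5, higher in each day 5 library, for a log2 fold change of 1.09 ± 0.072. The related Vill, a villin-like gene, changed by 1.89 ± 0.24 and the carbonic anhydrase Car2 by 0.79 ± 0.083. Against these, the water channel Aqp8 was at 105, 114 and 122 CPM at day 1 and 33.4, 40.97 and 34.4 CPM at day 5. Aqp8 changed by -1.66 ± 0.11 and the cadherin Cdh17 by -0.89 ± 0.076. The intestinal factor Cdx2 did not pass the test (-0.029 ± 0.098). Only 3 of 16 genes of secretory lineages are in the table (Clca1, Dclk1 and Muc2), together at 1.42 to 2.49 CPM, and none changed. Of 19 genes of epithelial junctions and keratins, 4 rose and 2 fell, or 9 and 2 under library size scaling, and the list median of 0.075 turned to -0.025 after a correction for GC content. Tjp3 and Cldn4, of tight junctions, changed by 1.00 ± 0.14 and 0.56 ± 0.084, and E-cadherin (Cdh1) and Krt18 by -0.36 ± 0.072 and -0.42 ± 0.087. Among 16 mesenchymal genes Fn1, Vim (-0.50 ± 0.091) and Snai2 (-1.30 ± 0.20) fell (18.8% against 15.3% of all genes) and Twist1 (0.31 ± 0.089) rose. The call of Twist1 was lost under RLE scaling, another correction for library composition, after the GC correction and in 4 of the 6 fits that each left out 1 library, day 1 replicate 3 among them. Of 13 genes of fetal or regenerating epithelium, Sprr2a3 (1.37 ± 0.096) and Ly6d (2.05 ± 0.25) rose (15.4% against 13.7% of all genes) and Clu (-0.51 ± 0.076) fell. Under library size scaling 4 rose.

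In a line that has lost Apc, WNT target genes are transcribed without the ligand. Of 16 such genes and stem cell genes, 5 rose and 2 fell. Notum, the secreted feedback inhibitor of WNT ligands, was at 3.20, 4.62 and 3.01 CPM at day 1 and 11.9, 14.6 and 12.03 CPM at day 5. Its log2 fold change was 1.84 ± 0.21 (adjusted p = 1.24e-07, limma-voom). Lgr5, the receptor that marks crypt stem cells, changed by 0.98 ± 0.16 at a mean of 1.24 to 2.42 CPM, Tcf7 by 0.39 ± 0.065 and Axin2 by 0.23 ± 0.062, while Apcdd1 and Cd44 fell by 0.55 and 0.30 on the log2 scale. Sox9 (0.019 ± 0.11), Rnf43 (-0.13 ± 0.070) and Znrf3 (-0.19 ± 0.062) did not pass the test. In the Notch pathway 4 of 12 genes rose and 2 fell. The receptors Notch3 (1.26 ± 0.13) and Notch1 (0.70 ± 0.19), the ligand Dll4 (1.39 ± 0.38, at a mean of 0.233 to 0.636 CPM) and the factor Hes6 (1.48 ± 0.13) rose, and the ligand Jag1 (-0.61 ± 0.069) and the receptor Notch2 (-0.27 ± 0.074) fell. The classical target Hes1 did not pass the test (-0.22 ± 0.085). Of 16 targets of TGF-beta and BMP, 4 rose, among them Id2 (0.67 ± 0.061) and Id3 (0.65 ± 0.080), and 2 fell, among them the ligand Bmp4 (-0.51 ± 0.068). Leaving out day 1 replicate 3 lowered the rises to 3 for WNT, 2 for Notch and 2 for TGF-beta and BMP.

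**Figure D4:**
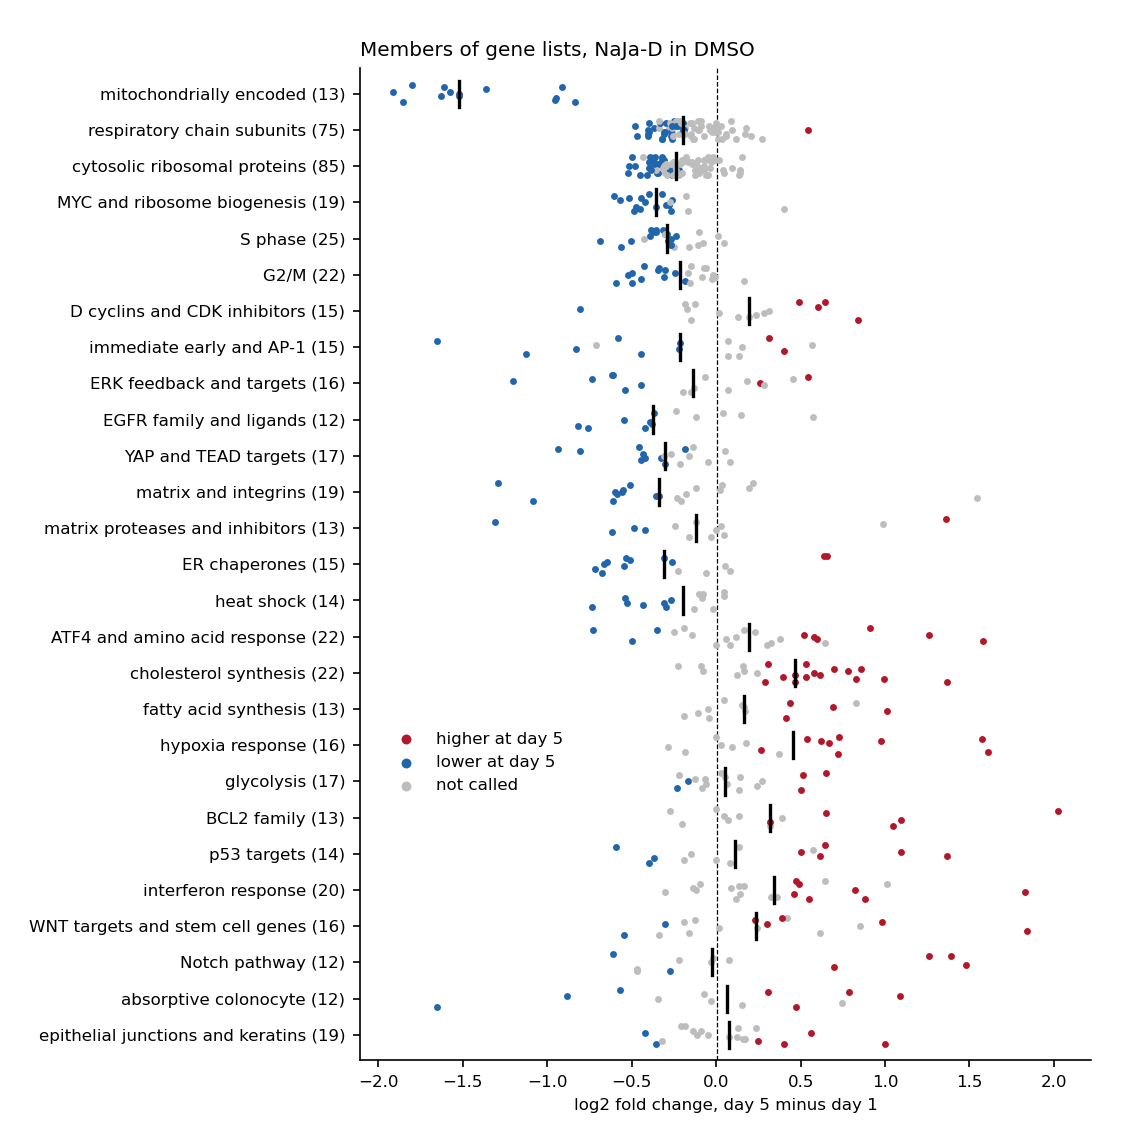
Each point is a gene of the list named at the left (number of members in parentheses), placed by its log2 fold change from day 1 to day 5 and coloured where it changed, with a black bar at the median of the list and a dashed line at the median of all genes. The 13 mitochondrially encoded genes stand apart at the left, matrix, chaperone and ribosome biogenesis genes lie mostly below 0, and cholesterol, hypoxia and BCL2 family genes mostly above.

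In the BCL2 family, which controls cell death at the mitochondrial surface, 5 of 13 genes rose and none fell, and all 5 were BH3-only genes, which promote death. Bmf, a BH3-only protein released from the cytoskeleton, was among the largest rises of the whole comparison, with 6.18, 5.63 and 3.91 CPM at day 1 and 22.6, 23.7 and 17.7 CPM at day 5 and a log2 fold change of 2.02 ± 0.16 (adjusted p = 1.39e-10, limma-voom). The further members were the BH3-only genes Bbc3 (1.09 ± 0.27), Bik (1.04 ± 0.27), Bcl2l11 (0.65 ± 0.078) and Bid (0.32 ± 0.054), Bbc3 and Bik at mean levels of at most 3.76 CPM on either day. The protective Bcl2l1 (0.0016 ± 0.076) and Mcl1 (0.045 ± 0.037) and the effector Bax (0.14 ± 0.069) did not pass the test. Without day 1 replicate 3, 3 rose, and under library size scaling 9. Of 14 targets of p53, 5 rose, led by Trp53inp1 at 1.37 ± 0.12, and 3 fell, while Mdm2 (-0.15 ± 0.049) did not pass the test. The list median of 0.11 turned to -0.055 after a correction for GC content. None of the engineered genes passed the test, Braf being at 0.14 ± 0.11, Trp53 at -0.0029 ± 0.051 and Apc at -0.11 ± 0.082, although Trp53 passed with 0.17 under library size scaling.

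Some interferon response genes rose. Of 20 interferon response genes in the table, 7 rose (11 under library size scaling) and none fell, with a median of 0.34, and the list summed to 245 to 256 CPM at day 1 and 290.1 to 298 CPM at day 5. Stat2, a transducer of interferon signals, was at 7.79, 8.59 and 9.34 CPM at day 1 and 15.4, 15.4 and 14.4 CPM at day 5, without overlap, and Irf1 changed by 0.46 ± 0.092. Irf9 (-0.095 ± 0.13) did not pass the test, and Isg15, Ifit1 and Ifit3 are not in the table. Of 12 genes of MHC class I presentation, 5 rose, among them B2m (0.44 ± 0.070), H2-K1 (0.31 ± 0.077) and H2-T23 (0.99 ± 0.093), and 3 fell, of which Calr and Canx (-0.56 ± 0.073) are chaperones and Psmb10 (-0.52 ± 0.16), which lost its call when any 1 of the 6 libraries was left out, is a subunit of the immunoproteasome. Genes of the H2 family are similar in sequence, so the division of reads between them is uncertain. Of 15 chemokines and cytokines, 3 rose and 4 fell, or 4 and 2 under library size scaling. The neutrophil attractant Cxcl5 was at 59.6, 80.8 and 64.1 CPM at day 1 and 158, 179 and 166 CPM at day 5, above day 1 in each day 5 library, with a log2 fold change of 1.31 ± 0.092, and Cxcl1 changed by 1.08 ± 0.21. Of 13 NF-kB feedback genes, 2 rose and 2 fell (15.4% each), near the 13.7% and 15.3% of all genes. Library size scaling gave 5 and 1. The extremes of this list were Tnfaip3, a feedback inhibitor of NF-kB, which fell by 1.01 on the log2 scale, and Nfkbia, which rose by 0.49.

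Among the remaining lists, 4 of 15 clock genes rose, including Arntl (0.49 ± 0.064) and Per3 (1.09 ± 0.32), the latter not when any 1 of the 6 libraries was left out, and Nr1d1 (-0.38 ± 0.063) and Clock (-0.22 ± 0.056) fell, against 9 rises and 1 fall under library size scaling. In the lysosome and autophagy list 5 of 21 rose and 5 fell. Library size scaling gave 8 and 3, and without day 1 replicate 3 the counts were 3 and 5. Of the cathepsins, Ctsl was at 1810.1, 2043 and 2235 CPM at day 1 and 944, 1057 and 951 CPM at day 5, without overlap, with changes of -1.04 ± 0.072 for Ctsl, -0.61 ± 0.083 for Ctsb and -0.53 ± 0.092 for Ctsz, while Ctsd (-0.21 ± 0.093) did not pass the test. The autophagy genes Sqstm1 (0.29 ± 0.072) and Map1lc3b (0.34 ± 0.066) rose. The transferrin receptor Tfrc changed by -0.57 ± 0.084 and the iron exporter Slc40a1 by 0.67 ± 0.089, and the metallothioneins Mt1 and Mt2 rose by 0.44 and 0.56, but without day 1 replicate 3 neither passed the test (adjusted p = 0.0245 and 0.0286, limma-voom). Of 16 NRF2 targets 3 rose (18.8% against 13.7% of all genes), Gsta4 (1.45 ± 0.11), Gstm1 (0.70 ± 0.12) and Gclc (0.55 ± 0.11), and 6 rose under library size scaling. With TMM, Nqo1 (0.13 ± 0.12) and Hmox1 (0.017 ± 0.083) did not pass the test. Of 14 genes of lipid oxidation and PPAR targets 5 rose and 6 fell, and library size scaling turned the list median from -0.17 to 0.0083. Of 15 genes of the FOXO and insulin pathway Foxo4 (0.54 ± 0.087), Sesn3 (0.52 ± 0.097), Klf9 (0.33 ± 0.070) and the PI3 kinase inhibitor Pik3ip1 (0.75 ± 0.18) rose, and Txnip (-0.32 ± 0.078) fell, while 7 rose and none fell under library size scaling. The lipid droplet protein Plin2 changed by -0.66 ± 0.075 and Pparg by 0.74 ± 0.057. Of 10 caspase, gasdermin and inflammasome genes, Casp8 (-0.44 ± 0.061) and Gsdme (-0.39 ± 0.12) fell (20% against 15.3% of all genes) and none rose, with a list median of 0.15. Under library size scaling 4 rose and 1 fell, and without day 1 replicate 3 Gsdme did not pass the test (adjusted p = 0.0539, limma-voom).

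The genes with the largest changes were taken among those with a mean of at least 2 log2 CPM and no overlap between the days. Of 14107 genes, 51% had no overlap between the days, and 28.4% were both changed and without overlap. The 15 highest were AU021092, Celf5, Fgf15, Bmf, Aldoc, Vill, Lmntd2, Notum, Ypel3, Coro6, Prr15l, Rasa4, Stat5a, Tesc and Vtcn1, with log2 fold changes from 2.34 to 1.67. Fgf15, the intestinal hormone that signals to the liver, was at 2.51, 2.39 and 2.01 CPM at day 1 and 9.95, 11.7 and 8.97 CPM at day 5. Celf5, an RNA-binding protein better known from neurons, was at 1.80, 2.44 and 1.58 CPM at day 1 and 9.71, 8.84 and 8.16 CPM at day 5, and Rasa4, a GTPase-activating protein for RAS, at 25.7, 27.8 and 20.3 CPM at day 1 and 83.6, 86.6 and 73.8 CPM at day 5. That the days do not overlap in these 3, and in the other genes taken in this way, follows from the rule by which they were taken. The changes of Lmntd2 and Coro6 were less stable. They passed the test in 1 and 2 of the 6 fits that each left out 1 library, although their log2 fold changes stayed between 1.75 and 1.94 and between 1.62 and 1.81. The 15 lowest were Prl2c3, mt-Co1, mt-Nd4, mt-Cytb, Gm28439, Gm13340, Gm10222, Gm29216, Has2, Egr1, Aqp8, mt-Co2, Gm13341, Cpa4 and Ctsw, with log2 fold changes from -2.68 to -1.58. Prl2c3, of the proliferin genes of the prolactin family, which are alike in sequence, was at 23.6, 23.6 and 28.5 CPM at day 1 and 3.93, 3.98 and 3.85 CPM at day 5. Cpa4, a carboxypeptidase, changed by -1.58 ± 0.12 and Ctsw, a cathepsin, by -1.58 ± 0.12. More extreme values were found at lower levels, and Cxcl15 and Klk6 are named here after their values were seen. Cxcl15, the chemokine lungkine, was at 0.461, 0.985 and 0.218 CPM at day 1 and 12.7, 16.3 and 13.6 CPM at day 5, the largest log2 fold change of all genes that passed the test (4.87 ± 0.38). The kallikrein protease Klk6 was at 6.62, 7.46 and 8.32 CPM at day 1 and 0.982, 1.17 and 0.856 CPM at day 5, a log2 fold change of -2.90 ± 0.24.

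A few genes were carried by 1 or 2 libraries. Gpm6a, a membrane glycoprotein of neurons, is also on the list of mesothelial markers used above. It was at 0, 0 and 205 CPM at day 1 and 0, 0.0216 and 0.0357 CPM at day 5, nearly all of its signal being in the day 1 library whose cell line field names NaJa-G. Its log2 fold change of -3.50 ± 3.82 did not pass the test. Across the other 28 libraries of the series it stood at 118 CPM in NaJa-D encorafenib day 5 replicate 1 and at most 0.0754 CPM elsewhere, including every library of NaJa-G. Cyp24a1, the vitamin D hydroxylase, was at 15.01, 0.188 and 0.170 CPM at day 1 and 0.115, 20.98 and 0.0891 CPM at day 5, and Vwa5b2 at 391, 55.04 and 90.8 CPM at day 1 and 31.5, 417 and 40.8 CPM at day 5. Both were high in day 1 replicate 1 and day 5 replicate 2.

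The same interval could be compared with the other 2 lines in DMSO, which share no library with NaJa-D. Of the 4090 genes changed in NaJa-D, 1402 (34.3%) also changed in NaJa-F, where they made up 59.4% of 2361 changed genes (16.7% of all, with 9.73% higher and 7.01% lower), and 1377 had the same direction. In NaJa-G, where 4804 genes (34.1%, with 17.2% higher and 16.8% lower) changed on 2 libraries at day 5, the shared genes numbered 2067, being 50.5% and 43.0% of the lists, with 1854 in the same direction. In all 3 lines 530 genes rose and 541 fell. Tested directly, the change from day 1 to day 5 differed between NaJa-F and NaJa-D for 624 genes (4.42%), 424 of them (3.01% of all) with the larger value in NaJa-F and 200 (1.42%) with the smaller, and between NaJa-G and NaJa-D for 2088 (14.8%), 1267 of them (8.98%) with the larger value in NaJa-G and 821 (5.82%) with the smaller. These splits turn with the scaling, since under library size scaling 224 of 686 and 846 of 2485 were larger in the other line. The first count also leaned on day 1 replicate 3 of NaJa-D, being 268 without it. The second was 1307 without NaJa-G DMSO day 5 replicate 1 and 634 when the compared groups were fitted alone, a fit in which the first was 515, with 279 of them larger in NaJa-F.

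Matrix genes whose change differed from NaJa-F or NaJa-G past an adjusted p of 0.01 (limma-voom) did so in the same direction. The list median was -0.34 in NaJa-D, against 0.038 in NaJa-F and 0.16 in NaJa-G. Short of that threshold some members went the other way, such as Col7a1 with 0.22 in NaJa-D, against -0.0031 in NaJa-F and -0.77 in NaJa-G. The counts of differing genes here and below are of those past the threshold. For 5 of the 19 genes the change was more negative than in NaJa-F, for 9 more negative than in NaJa-G, and for none less negative. Library size scaling gave 3 and 8. Lama3, with a log2 fold change of -1.29 in NaJa-D, had -0.46 in NaJa-F and -0.82 in NaJa-G (adjusted p of the differences 7.86e-06 and 0.00213, limma-voom). Leaving out replicate 3 of day 1 in NaJa-D made these counts 2 and 6. Of 22 ATF4 genes, 7 had a larger change in NaJa-D than in NaJa-F and 1 a smaller, and 10 a larger change than in NaJa-G (9, 1 and 12 under library size scaling, and 5, 1 and 7 without that library). The log2 fold changes of Trib3 were 1.26 in NaJa-D, against -0.14 in NaJa-F and -0.027 in NaJa-G, and those of Chac1 0.91, -0.44 and -0.73. For hypoxia genes 4 of 16 had a larger change in NaJa-D than in each line, or 7 and 8 under library size scaling. Of 22 cholesterol genes, 10 rose in NaJa-F (median 0.25) and 22 in NaJa-G (median 0.74), of which 2 (9 under library size scaling, and 1 without that library) had a smaller change in NaJa-F and 10 a larger change in NaJa-G. Of 13 mitochondrially encoded genes, 12 fell in NaJa-F and 13 in NaJa-G, with medians of -0.85 and -1.64, and 2 of 13 differed between NaJa-F and NaJa-D and none between NaJa-G and NaJa-D at an adjusted p of 0.01 (limma-voom). Without day 1 replicate 3 of NaJa-D, none of the 13 differed between NaJa-F and NaJa-D.

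Single genes with the largest differences between lines were chosen from those at a mean of at least 2 log2 CPM in NaJa-D. Relative to NaJa-F, the fall of Prl2c3 was deeper in NaJa-D (NaJa-F minus NaJa-D 1.75) and Tgfbi, a matrix protein, had a log2 fold change of -0.044 in NaJa-D, not passing the test, against 1.64 in NaJa-F. Upk3bl and Cxcl3 rose in NaJa-D, by 1.65 and 1.14, with differences of -1.45 and -1.40. Against NaJa-G, the WNT feedback gene Apcdd1 differed by 2.15, with a log2 fold change of -0.55 in NaJa-D and 1.599 in NaJa-G, and the amino acid transporter Slc16a10 by 2.13. Fgf15 differed by -2.99, but its mean in NaJa-G was below 0.5 CPM on both days.

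In NaJa-D cells treated with 0.5 µM encorafenib, an inhibitor of BRAF V600E, the same interval could be set beside the DMSO change, and the libraries of that comparison are separate. There 26.7% of all genes changed, with 12.5% higher and 14.2% lower. NaJa-D encorafenib day 1 replicate 3 stood apart from the other libraries of its group, correlating with them at 0.988 where those correlated with each other at 0.997. The change from day 1 to day 5 differed between treatments for 1029 genes (7.29%), 640 of them (4.54% of all) with the larger value in DMSO and 389 (2.76%) with the smaller, for 3104 without that library (1581 larger in DMSO), for 587 without DMSO day 1 replicate 3, and for 261 when the compared groups were fitted alone. Among the lists, the genes for ribosomal proteins held the most differences. They had a median of -0.24 in DMSO and 0.24 in encorafenib, and 45 of 85 differed, all with the larger value in encorafenib, under library size scaling as well. Without the library that stood apart the number was 75, and without DMSO day 1 replicate 3 it was 22. Vil1 had log2 fold changes of 1.09 in DMSO and -1.69 in encorafenib (adjusted p of the difference 1.85e-16, limma-voom), and 4 of 12 colonocyte genes had the larger change in DMSO. Slurp1 and Psca rose by 0.98 and 1.03 in DMSO, against log2 fold changes of -2.37 and -1.73 in encorafenib. Egr1, which fell in DMSO, had a log2 fold change of -0.18 in encorafenib, where its means were 15.1 CPM at day 1 and 13.3 CPM at day 5. Of 12 EGFR family genes, 4 had a more negative change in DMSO.

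**Figure D5:**
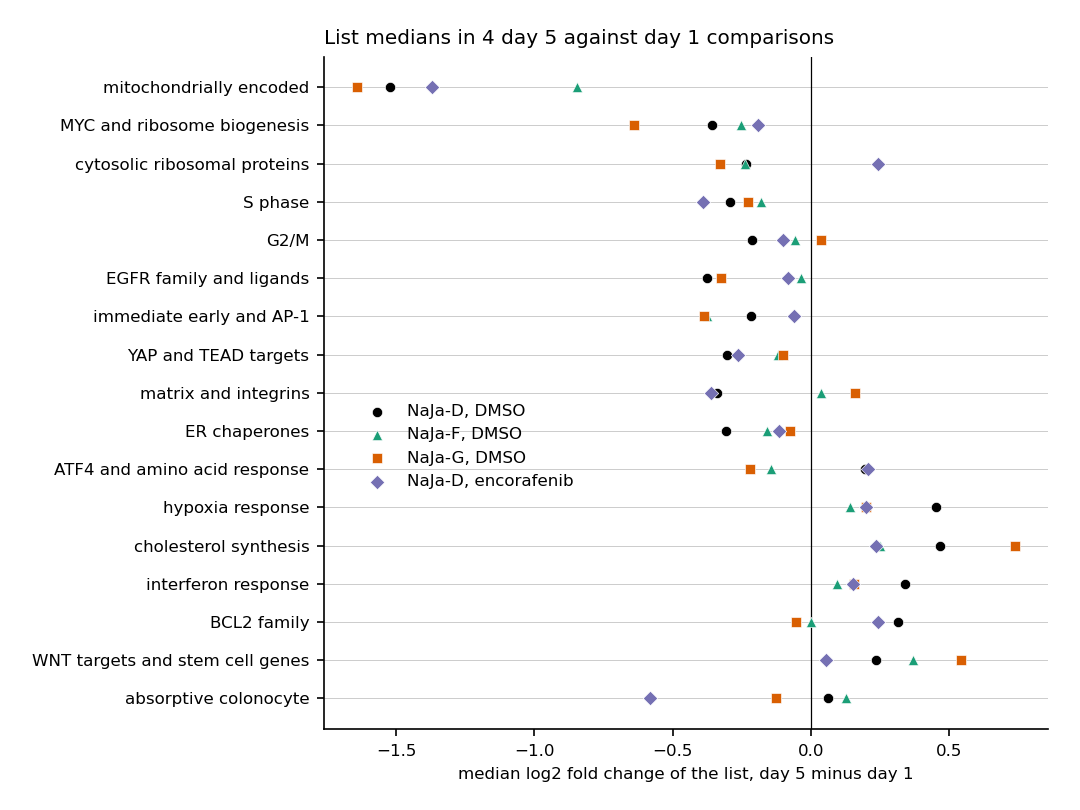
Points are the medians of gene lists, as log2 fold changes from day 1 to day 5, in NaJa-D with DMSO (black circles), NaJa-F with DMSO, NaJa-G with DMSO and NaJa-D with encorafenib. Matrix and integrin genes lie at -0.34 in NaJa-D and above 0 in NaJa-F and NaJa-G with DMSO, and ribosomal protein genes lie below 0 in the 3 DMSO comparisons and at 0.24 with encorafenib.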

How the data were processed

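Total RNA of NaJa-D cells, harvested 1 day or 5 days after DMSO was first given, was sequenced, and the deposited table holds read counts per gene for 34 libraries. Per the labels and the methods of the study, the authors trimmed reads with Trimmomatic 0.39 and aligned them with STAR 2.5.2b to GRCm38. The counting tool, the annotation and the strand setting are not given in the sources used here. All 14107 genes lie above 1 CPM in 2 or more libraries, and no further filter was applied. Gene names and exon lengths came from GENCODE vM21 and promoter windows from RefSeq, both on GRCm38.

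The counts were scaled by TMM (edgeR 4.0.16) and tested with limma-voom (limma 3.58.1, R 4.3.3) in 1 fit over 12 groups of line, treatment and day, as moderated contrasts with Benjamini-Hochberg adjustment over all genes and an adjusted p of 0.01. limma with TMM is the method that the study names. edgeR's quasi-likelihood test and DESeq2 (1.42.0) were run as alternatives. Values are CPM scaled by library size and TMM factor, log2 fold changes are day 5 minus day 1 and errors are SE unless stated. Samples were grouped by title. Named genes were the 15 largest rises and the 15 largest falls among changed genes with at least 2 log2 CPM on average and no overlap, the 5 largest differences per direction against each other line and against encorafenib, and members of the gene lists. Some of these genes are not reported here. The members and lists were chosen with earlier results of these data known. Other scalings, a GC correction, fits on the groups compared alone, thinning to equal depth and leaving out each library were the further alternatives. The fit was tested on simulated data. Depths of 46007050 to 61028464 counts leave little counting error at the levels shown, apart from genes near 1 CPM.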

Additional observations from a re-analysis of the deposited data

Results flagged for a closer look

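The change from day 1 to day 5 in NaJa-D with DMSO was tested against the same change elsewhere, and the differences past an adjusted p of 0.01 (limma-voom) are listed here with their log2 size. All are given as the other comparison minus NaJa-D with DMSO.

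Against NaJa-F with DMSO, 624 genes differed. The largest positive differences were those of Prl2c3 (1.75), Tgfbi (1.69), 4930438A08Rik (1.51), Stc1 (1.42) and Enpp2 (1.36). Stc1, the secreted glycoprotein stanniocalcin, had a log2 fold change of -0.92 in NaJa-D and 0.50 in NaJa-F. The largest negative differences were those of AU021092 (-1.49), Upk3bl (-1.45), Trib3 (-1.40), Cxcl3 (-1.40) and Chac1 (-1.36). Leaving out NaJa-D DMSO day 1 replicate 3, whose cell line field names NaJa-G, left 4930438A08Rik short of the threshold, at an adjusted p of 0.0207, and kept the other 9.

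Against NaJa-G with DMSO, 2088 genes differed. Positive differences were largest for Apcdd1 (2.15), Slc16a10 (2.13), Nts (1.97), Enpp2 (1.88) and Gpr155 (1.88). Enpp2, which makes lysophosphatidic acid outside the cell, thus differed from both other lines, with a log2 fold change of 0.23 in NaJa-D, against 1.59 in NaJa-F and 2.11 in NaJa-G. Negative differences were largest for Fgf15 (-2.99), Plekhs1 (-2.63), Mrgprb2 (-2.09), Lypd6b (-1.96) and Onecut3 (-1.94). In NaJa-G these 5 genes had means of at most 0.729 CPM at day 1.

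Between encorafenib and DMSO in NaJa-D, 1029 genes differed. Positive differences were largest for Nts (1.99), Spsb1 (1.74), Egr1 (1.47), Ctsw (1.29) and Ccn3 (1.21). The gut peptide Nts had log2 fold changes of -0.46 with DMSO and 1.53 with encorafenib. Negative differences were largest for Slurp1 (-3.35), Vil1 (-2.78), Psca (-2.76), Atp2a3 (-2.42) and Sprr2a3 (-1.97). Each of these 10 passed the threshold also without NaJa-D DMSO day 1 replicate 3 and without NaJa-D encorafenib day 1 replicate 3.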

How the results depend on the processing

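The count of 4090 changed genes stayed within 1.5 times under every other test, scaling, correction and left-out library tried. It was 4380 with edgeR's quasi-likelihood test and 4638 with DESeq2, 4508 with limma-trend, 3957 with the compared groups alone, 4510 with a GC correction and 4168 with all libraries thinned to the smallest total. An absolute log2 fold change of 1 lowered it to 412. It ran from 3046 to 3591 when 1 library was left out. The genes called were less stable than their number. Of the 4090, 2864 were called under library size scaling, 3348 with the compared groups alone and 3759 with a GC correction, in either direction. Upper quartile scaling gave 568 of 1156 differences between treatments as larger with encorafenib, 49.1%, against 389 of 1029 with TMM, and removing the mitochondrial genes under library size scaling put 69.8% of 4361 changed genes higher at day 5. The GC correction put 1696 of 4510 changed genes higher.

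The differences between lines and treatments depended more on the choices. Against NaJa-F they numbered 955 with DESeq2, 1514 at an adjusted p of 0.05, 74 at a log2 difference of 1, and 268 to 761 with 1 library left out. The libraries that lowered the number by over 1.5 times were NaJa-D DMSO day 1 replicate 3 (268), NaJa-F DMSO day 5 replicates 1 (403) and 2 (386), and NaJa-F DMSO day 1 replicate 3 (410). Against NaJa-G they numbered 634 with the compared groups alone, 3614 at 0.05, 270 at a log2 difference of 1, and 1307 to 2411 with 1 library left out, where NaJa-G DMSO day 5 replicate 1 gave 1307 and left that group with 1 library, assumed to vary like the others. Between encorafenib and DMSO they numbered 261 with the compared groups alone, 2401 at 0.05, 181 at a log2 difference of 1, and 581 to 3104 with 1 library left out. The count rose to 3104 without NaJa-D encorafenib day 1 replicate 3 and fell to 581 and 645 without replicates 1 and 2 of that group, to 671 without NaJa-D encorafenib day 5 replicate 3, to 587 without NaJa-D DMSO day 1 replicate 3 and to 644 without NaJa-D DMSO day 5 replicate 1. The cause was not tested.

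For libraries with the same replicate number, the correlations of their deviations from the mean of the day were -0.16, 0.15 and -0.18. For unlike numbers they ran from -0.28 to 0.39, the highest being day 1 replicate 1 with day 5 replicate 3. With 3 libraries per day these values cannot show whether the numbers pair the libraries. With the replicate number as a block 4081 genes changed, and the differences from NaJa-F, NaJa-G and encorafenib numbered 524, 1864 and 1003. Of the 264 genes named, 204 changed, and 30 of these lost their call in at least 1 fit with a library left out. Trp53, which did not pass the test, passed with a log2 fold change of 0.17 under library size scaling.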

Other observations

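Some transcripts outside the gene lists are given for their levels. Rgs11, a regulator of G protein signalling chosen after its values were seen, was at 0.796, 1.17 and 0.582 CPM at day 1 and 6.69, 8.79 and 6.79 CPM at day 5, and its log2 fold change was 3.14 ± 0.81 (adjusted p = 0.00272, limma-voom). Mir6236, a short annotated gene, had 81.9, 108 and 103 CPM at day 1 and 241, 206 and 189 CPM at day 5, higher at day 5 in each library, for a log2 fold change of 1.12 ± 0.24. Gm23935, another, stood at 17.4, 20.7 and 16.2 CPM at day 1 and 194, 35.1 and 32.8 CPM at day 5, with most of its day 5 signal in replicate 1, and did not pass the test (1.77 ± 0.72). These 2 were among the 10 most abundant genes per kilobase at day 5, as was Ly6a, the surface antigen Sca-1, at 2052, 2400.0 and 2395 CPM at day 1 and 2421, 2923 and 2566 CPM at day 5.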
